A study of Mus musculus with 12 samples.

Results

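Transcripts of 8 genes of cholesterol and fatty acid synthesis, Scd2, Idi1, Hmgcs1, Fdps, Sqle, Insig1, Fasn and Cyp51, were followed in mouse samples that differ in the form of the growth hormone receptor. A gene was taken in where a spot of the array carried its symbol and no other. Of the 8 genes, 7 had a spot, 1 spot each, among 15081 named genes with a spot, and Hmgcs1 was not analysed here. Scd2, Idi1, Insig1 and Cyp51 had a value on all 12 arrays, Fasn and Sqle on 11 and Fdps on 10. The set was put together from earlier results of the same arrays, in which NLS lay above WT for several of its genes. Differences between NLS and WT are therefore given as a description with no test, and they are not evidence that this pathway responds to the receptor form.

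The study, titled for the nuclear growth hormone receptor, set a receptor called NLS against the wild type (WT). The samples formed 4 groups of 3 arrays, NLS 1GH, WT 1GH, NLS 0GH and WT 0GH, with replicate letters b, c and d in each. NLS commonly stands for nuclear localization signal, a short peptide that directs a protein into the nucleus. The number before GH (growth hormone) has no unit in the labels, every sample is labelled with 100 ng/ml of human growth hormone, and the 10 in every title is not explained, so the groups are not called treated and untreated. The labels give no cell type, strain, vector, promoter or clone, and do not tie letters to cultures or animals, so p-values measure only how these samples scatter, which may be technical. Each array set a Cy3-labelled sample against Cy5-labelled embryonic reference RNA, and a value is the log2 ratio of sample over reference, centred on the median of all tested features of its array. The labels do not name the numerator. The sign was taken from genes of embryonic tissues, of which 38 of 42 lay on the reference side, and the opposite reading would turn every sign below. On each array 15676 to 19373 of 22134 gene spots carried a value. Precision is limited by the number of arrays, 3 a group.

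Cells make cholesterol from acetyl-CoA through the mevalonate pathway. Its early enzymes build isoprene units, Idi1 and Fdps turn these into farnesyl diphosphate, and Sqle and Cyp51 act on squalene and lanosterol on the way to cholesterol. When sterols are scarce, SREBP transcription factors leave the endoplasmic reticulum and induce these genes together. Insig1 holds SREBP back when sterols are plentiful, and is itself an SREBP target. Fasn makes palmitate, and the stearoyl-CoA desaturases Scd1 to Scd4 of the mouse insert a double bond into saturated fatty acids. SREBP proteins also drive these genes.

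Promoter sequence was given for 4 of the 7 genes with a spot, and is shown because shared SREBP control is the reason such genes are grouped. The stretches below are the 120 bases before the RefSeq start on GRCm38.p6, read 5′ to 3′ on the strand of the gene. Capitals mark matches on either strand to CCAAT, bound by NF-Y, to GGGCGG, bound by Sp1, and to the E-box CACGTG. Idi1 lies at chr13:8885486-8885605 (+), Insig1 at chr5:28071292-28071411 (+), Fasn at chr11:120824548-120824667 (-) and Cyp51 at chr5:4104698-4104817 (-).
Idi1: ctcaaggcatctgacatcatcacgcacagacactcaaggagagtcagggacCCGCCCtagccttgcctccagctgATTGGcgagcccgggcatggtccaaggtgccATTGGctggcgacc
Insig1: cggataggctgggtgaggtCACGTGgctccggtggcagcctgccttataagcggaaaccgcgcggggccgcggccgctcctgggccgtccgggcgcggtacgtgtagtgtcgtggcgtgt
Fasn: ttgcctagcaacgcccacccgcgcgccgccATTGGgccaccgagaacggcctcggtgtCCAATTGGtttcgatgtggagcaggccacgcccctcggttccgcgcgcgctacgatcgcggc
Cyp51: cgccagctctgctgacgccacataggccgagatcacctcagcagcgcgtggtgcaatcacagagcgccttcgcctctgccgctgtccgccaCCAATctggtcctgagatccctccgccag

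Over the whole 250 bases before the start, CCAAT or its complement stood in all 4 of these windows. It also stood in 33.8% of the 32851 RefSeq windows of the same length. In Idi1 it occurred 45 to 41 and again 14 to 10 bases before the start, and in Cyp51 29 to 25 bases before it. In Fasn it occurred 3 times, and 2 of these matches overlap at 62 to 55 bases before the start. The Insig1 match lay further out, 216 to 212 bases before the start. GGGCGG stood in the windows of Idi1, Insig1 and Cyp51, against 32.7% of all windows, and CACGTG stood in that of Insig1 alone, 101 to 96 bases before the start, against 6.02% of all windows. Neither CACCCCAC, the core of the sterol element of the LDL receptor gene, nor the related pattern TCACNCCAC was found in the 4 windows; they occur in 2.58% and 1.05% of all windows, and the letters of both can overlap. The Hmgcs1 window held both in 1 overlapping stretch, 137 to 129 bases before the start. A match is only a run of letters, and none of these data measure binding.

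Across the 7 genes, Scd2 was the most regular in its difference between the receptor forms. It was the only one of the 4 genes with a value on all 12 arrays for which every NLS array lay above every WT array, and 0.567% of the 10760 tested features (8707 named genes and 2053 unnamed spots) did the same. NLS lay above WT in all 6 pairs of one letter and GH number for Scd2, against 3.49% of features, and in at least 5 of 6 pairs for Scd2 and Idi1, against 14.2% of features. Of the 4 genes, Idi1 and Scd2 were higher in NLS in every letter at 0GH, where 15% of features were. Insig1 and Scd2 were higher in every letter at 1GH, where 13.8% were. Because the genes were chosen on this contrast, nothing is read from these shares. The median NLS minus WT difference of the 4 genes was 1.33 log2 units at 1GH and 0.72 at 0GH, beside −0.05 and −0.00 over all tested features. The 1GH median was 0.62 without letter b and 1.91 without the WT 1GH array of letter c, and the 0GH median over all 7 measured genes was 0.0085. The arrays cannot tell a change in RNA per cell from a change in the mix of cells. With limma's moderated test and Benjamini-Hochberg adjustment, 0% of the 10760 features passed an adjusted p of 0.05 for NLS minus WT at 1GH (376 at an unadjusted p under 0.05), at 0GH (495) or averaged over the GH numbers (567). Features can fall under an unadjusted p of 0.05 with no difference, so the counts in brackets are not read as signal.

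**Figure D1:**
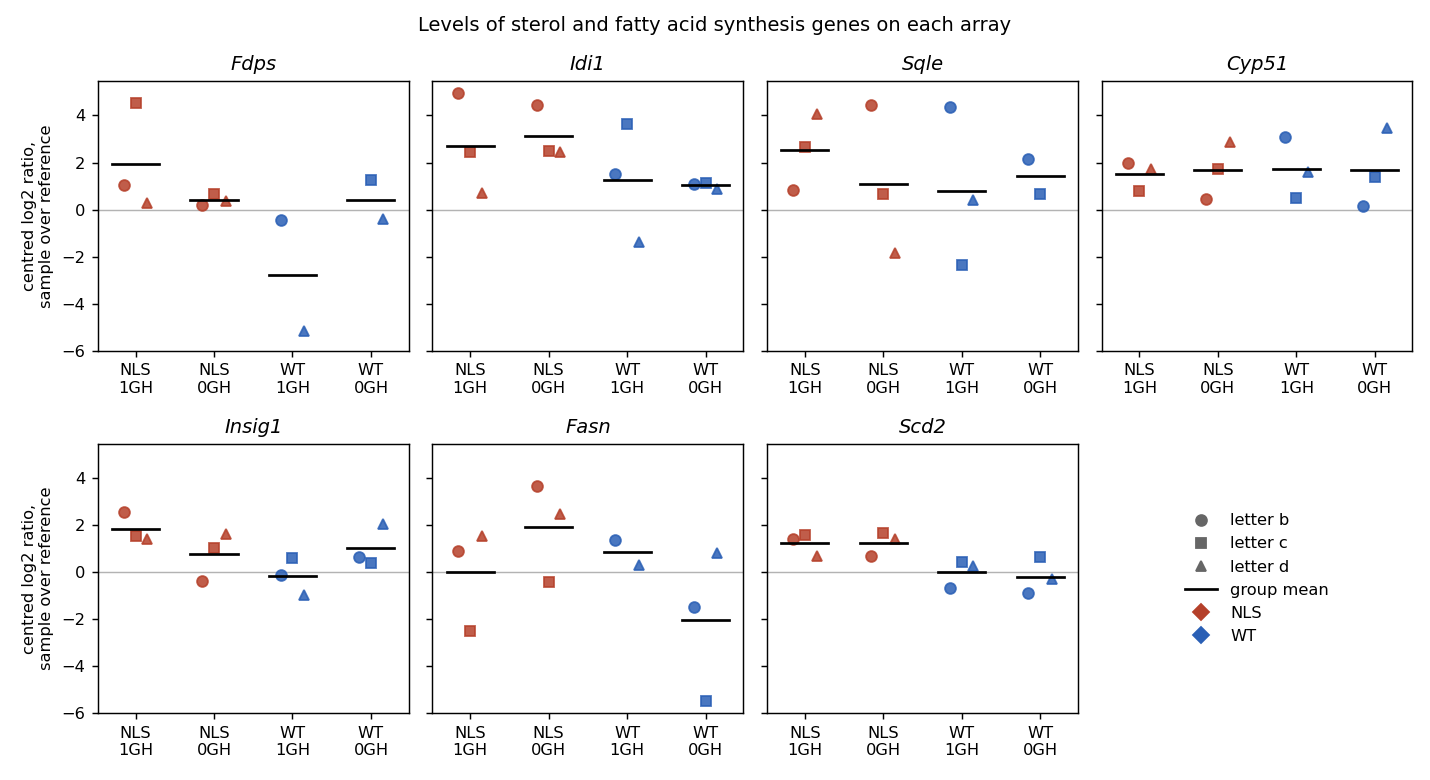
Centred log2 ratio of sample over reference (vertical axis) for the 7 measured genes on each array, with the 4 groups along the horizontal axis. Symbols stand for the replicate letters and bars for the group means. The 6 NLS arrays lie above the 6 WT arrays for Scd2, while the groups overlap for Cyp51 and Sqle.

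In the mevalonate pathway, Idi1 encodes isopentenyl diphosphate isomerase, which interconverts the isoprene building blocks. At 0GH its log2 ratio was 4.47, 2.47 and 2.45 in the NLS arrays (letters b, c and d), against 1.10, 1.14 and 0.87 in the WT arrays. All 3 NLS 0GH arrays therefore lay above all 3 WT 0GH arrays, as for 4.66% of features in that comparison. The WT 0GH arrays were close to each other (SD 0.14, n = 3). Both depended on the centring of the arrays. Without it the NLS 0GH values were 5.41, 1.96 and 2.98 and the WT 0GH values 1.76, 0.83 and 2.03, so the groups overlapped. At 1GH the values were 4.94, 2.43 and 0.72 in NLS arrays, against 1.51, 3.63 and −1.36 in WT arrays, and the groups overlapped because letter c ran the other way (−1.19). The fitted NLS minus WT difference was 2.09 (SE 1.30) at 0GH, a ratio of 4.26, and 1.44 (SE 1.30) at 1GH, a ratio of 2.71. Averaged over the GH numbers it was 1.77 (SE 0.92), and it was 3.40 in letter b, 0.07 in letter c and 1.83 in letter d. Single arrays moved these values: the 1GH difference was 0.13 without the WT 1GH array of letter d and 2.76 without letter c, and the average was 0.95 without letter b.

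Fdps encodes farnesyl diphosphate synthase, which joins the isoprene units. Its spot gave no value for letter c of WT 1GH and letter b of WT 0GH, which were left out of its fit. At 1GH its log2 ratio was 1.03, 4.53 and 0.27 in NLS arrays, against −0.45 and −5.15 in the WT arrays of letters b and d. Every NLS 1GH value lay above both WT 1GH values. The share of features that do so with a WT array missing was not computed, so nothing is read from it. The fitted difference of 4.74 (SE 1.60) was 2.39 without the WT 1GH array of letter d and 7.55 without letter b. At 0GH the values were 0.19, 0.67 and 0.37 in NLS arrays, against 1.25 and −0.40 in the WT arrays of letters c and d, and the difference was −0.01 (SE 1.60).

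Sqle encodes squalene epoxidase, the first oxygen-dependent enzyme of the sterol branch. At 1GH its log2 ratio was 0.83, 2.67 and 4.08 in NLS arrays, against 4.36, −2.36 and 0.43 in WT arrays. At 0GH it was 4.45, 0.65 and −1.84 in NLS arrays, against 2.15 and 0.68 in the WT arrays of letters b and c, the only ones with a value. The groups overlapped at both numbers and the letters disagreed, with a 1GH difference of −3.53 in letter b, 5.03 in letter c and 3.65 in letter d. Its spread within groups was 2.65 (pooled SD), wider than for 95.7% of the tested features. The fitted differences, 1.72 (SE 1.94) at 1GH and −0.33 (SE 2.17) at 0GH, were smaller than their errors. They rested on single arrays: the 1GH value was 0.06 without letter c and 4.34 without letter b, and the 0GH value was 1.13 without the NLS 0GH array of letter d and −2.01 without that of letter b.

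Cyp51 encodes lanosterol demethylase, which removes a methyl group from the sterol nucleus. Its log2 ratio was 1.99, 0.79 and 1.73 in NLS 1GH arrays, against 3.10, 0.48 and 1.58 in WT 1GH arrays. At 0GH it was 0.46, 1.73 and 2.86 in NLS arrays, against 0.17, 1.40 and 3.45 in WT arrays. NLS lay above WT in 4 of its 6 pairs of letter and GH number, and the fitted difference was close to 0, at −0.22 (SE 0.96) at 1GH, 0.01 (SE 0.96) at 0GH and −0.11 (SE 0.68) averaged. At 0GH its arrays went in the same order by letter in both receptor forms, with letter b lowest and letter d highest.

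Insig1 encodes the endoplasmic reticulum protein that retains SREBP and promotes the breakdown of HMG-CoA reductase. At 1GH its log2 ratio was 2.56, 1.54 and 1.41 in NLS arrays, against −0.12, 0.62 and −0.98 in WT arrays, so the groups did not overlap, as for 4.48% of features in that comparison. The difference was 1.99 (SE 0.68), a ratio of 3.98, and lay between 1.58 and 2.54 when any array or letter was left out. At 0GH the values were −0.36, 1.02 and 1.61 in NLS arrays, against 0.65, 0.40 and 2.06 in WT arrays. Here the groups overlapped, and the difference of −0.28 (SE 0.68) was 0.28 without the NLS 0GH array of letter b. The average over both GH numbers, 0.86 (SE 0.48), thus came from the 1GH arrays.

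Of the fatty acid genes, Scd2 encodes the stearoyl-CoA desaturase that is widespread outside the liver. At 1GH its log2 ratio was 1.41, 1.59 and 0.70 in NLS arrays, against −0.68, 0.43 and 0.28 in WT arrays. At 0GH it was 0.69, 1.65 and 1.40 in NLS arrays, against −0.90, 0.66 and −0.30 in WT arrays. The gap between the groups was narrow at 0GH, where the lowest NLS array and the highest WT array differed in the second decimal. The difference was 1.22 (SE 0.52) at 1GH, 1.43 (SE 0.52) at 0GH and 1.32 (SE 0.37) averaged, a ratio of 2.51. By letter, the averages were 1.84 (b), 1.08 (c) and 1.06 (d). With any array or letter left out the average lay between 1.07 and 1.54, and the 1GH difference was 0.79 without letter b. Scd2 also had the smallest pooled SD within groups of the 7 genes, 0.60, against 0.85 for Insig1, 1.26 for Cyp51 and 1.74 for Idi1.

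Fasn encodes fatty acid synthase. At 0GH its log2 ratio was 3.67, −0.41 and 2.47 in NLS arrays, against −1.48, −5.48 and 0.84 in WT arrays. NLS was higher in each letter, by 5.15, 5.07 and 1.64, and yet the groups overlapped, because letter c was low in both receptor forms. Of the tested features, which have a value on every array, 15% were higher in NLS in each letter at 0GH. Fasn was not among those features and was chosen on this contrast, so nothing is read from that share. The fitted difference of 3.95 (SE 1.74) at 0GH was 2.23 without the WT 0GH array of letter c. At 1GH the values were 0.91, −2.49 and 1.56 in NLS arrays, against 1.36 and 0.33 in the WT arrays of letters b and d, since letter c had no value there. The groups overlapped and the difference was −0.85 (SE 1.94), with its sign set by the NLS 1GH array of letter c: without that array it was 0.39.

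**Figure D2:**
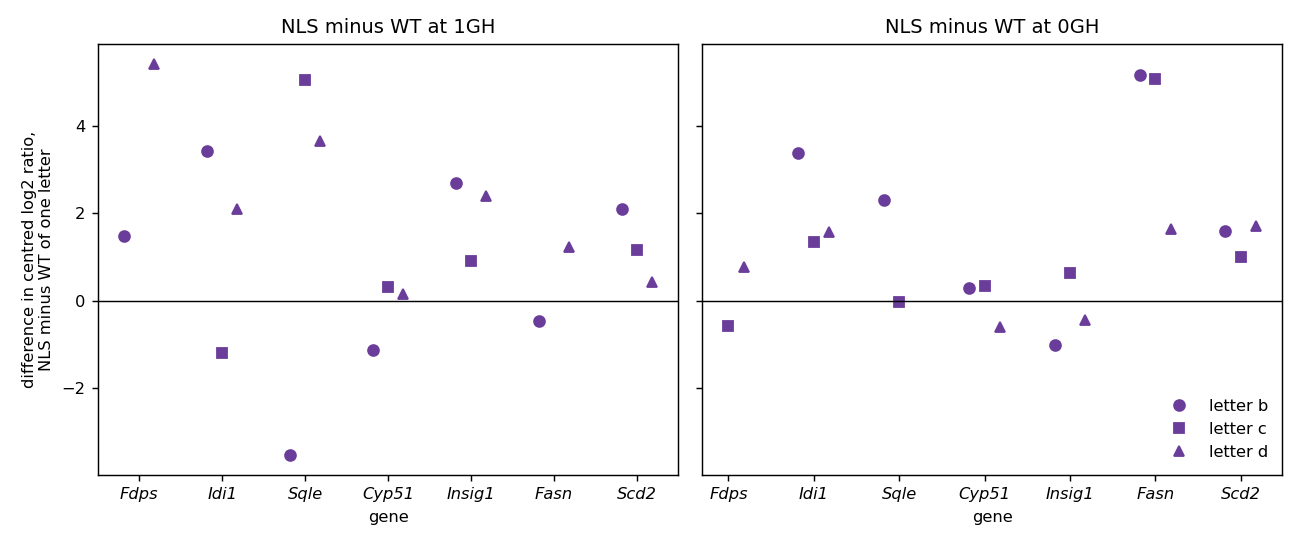
Difference in centred log2 ratio between the NLS and the WT array of the same letter (vertical axis) for each gene (horizontal axis), at 1GH on the left and at 0GH on the right. Scd2 has all 6 points above 0, Insig1 has all 3 above 0 at 1GH but not at 0GH, and the points of Sqle lie on both sides of 0.

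The GH number was not part of how the genes were chosen, so its differences were tested. No gene of the set passed, and 0% of the 10760 features passed in either receptor form (unadjusted p under 0.05 for 314 in NLS and 289 in WT) or averaged over both (307). For Scd2, the 1GH minus 0GH difference was −0.01 in NLS, with a 95% interval of −1.17 to 1.14, and 0.19 in WT, with an interval of −0.97 to 1.35. For Idi1 it was −0.43 in NLS (−3.32 to 2.46) and 0.22 in WT (−2.67 to 3.11). For Cyp51 it was −0.18 in NLS (−2.31 to 1.95) and 0.05 in WT (−2.08 to 2.18). The intervals for Idi1 and Cyp51 are wide: that for Idi1 holds differences as large as the one between its receptor forms, in either direction. The Scd2 interval in WT also holds its receptor differences of 1.22 at 1GH and 1.32 averaged, though not the 1.43 at 0GH.

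Insig1 had differences of opposite sign, 1.08 in NLS (−0.43 to 2.59) and −1.19 in WT (−2.70 to 0.31), neither of which passed (adjusted p = 0.9997 and 0.9999, limma). The NLS value was 0.16 without letter b and the WT value −0.27 without letter d. No gene of the 4 had its 3 arrays at 1GH all above or all below those at 0GH. In NLS this held for 3.87% of features upwards and 3.43% downwards, and in WT for 2.95% and 2.7%. Fdps had 1.53 in NLS (−1.76 to 4.82) and −3.22 in WT (−7.25 to 0.81), and Fasn had −1.92 in NLS (−5.85 to 2.01) and 2.89 in WT (−1.51 to 7.28). Sqle had 1.44 in NLS (−2.95 to 5.83) and −0.61 in WT (−5.52 to 4.30). Single arrays or letters moved these too: Sqle was −0.80 in NLS without letter d and 0.98 in WT without the WT 1GH array of letter c. Fdps was 0.24 in NLS without the NLS 1GH array of letter c and −0.87 in WT without the WT 1GH array of letter d, while Fasn was −0.68 in NLS without the NLS 1GH array of letter c and 1.17 in WT without letter c. The GH and receptor differences share their arrays, so these values are not independent of those given above.

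**Figure D3:**
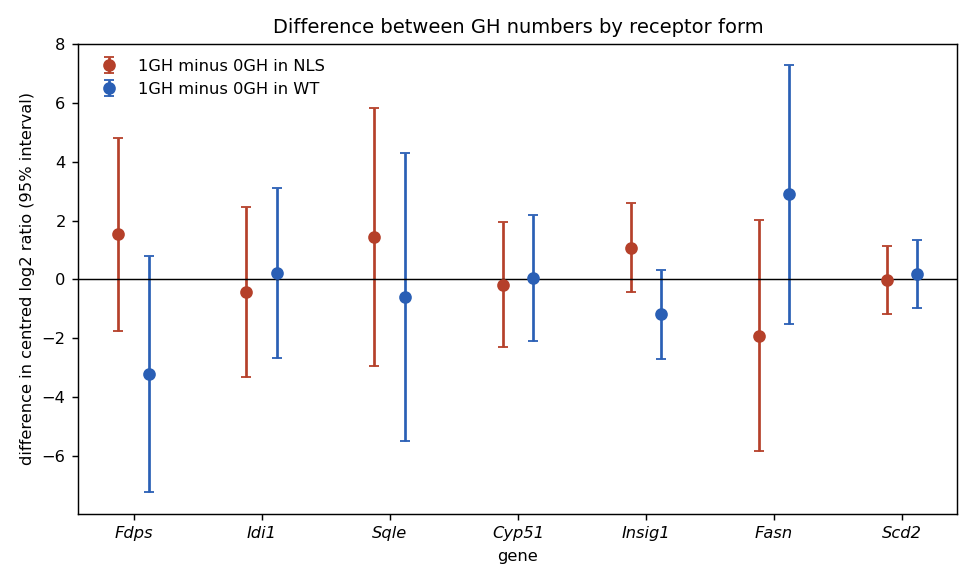
Difference in centred log2 ratio between 1GH and 0GH arrays (vertical axis) for each gene (horizontal axis), in NLS and in WT, with 95% intervals from the limma fit (n = 3 arrays a group, fewer where a value was missing). All intervals include 0, and the NLS and WT points have opposite signs for all 7 genes, with those of Scd2 and Cyp51 close to 0.

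The interaction, the GH difference in NLS less that in WT, is made of the 2 receptor differences that were known when the genes were chosen. Its values for the set are therefore a description, with no test. No feature passed for it (0% of 10760, 260 at an unadjusted p under 0.05). For Insig1 it was 2.27 (SE 0.96), and positive in all 3 letters, as for 11.8% of features. It was −0.20 (SE 0.73) for Scd2, −0.65 (SE 1.84) for Idi1 and −0.23 (SE 1.35) for Cyp51. The Scd2 value was smaller than its error, and by letter it was 0.50 (b), 0.17 (c) and −1.28 (d). The estimates from incomplete values were 4.76 (SE 2.26) for Fdps, −4.81 (SE 2.61) for Fasn and 2.05 (SE 2.91) for Sqle. That for Fdps was 2.41 without the WT 1GH array of letter d, and that for Fasn was −3.01 without letter c.

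Other genes of the sterol pathway lay on both sides of 0. Of 16 other enzymes of sterol synthesis, 10 were measured on every array. Of these, 4 were higher and 6 lower in NLS averaged over the GH numbers, with a median of −0.10, while at each GH number singly 6 were higher and 4 lower, with medians of 0.29 at 1GH and 0.58 at 0GH. Over all features 47.7% were higher averaged, 46.8% at 1GH and 49.7% at 0GH. No feature passed in these comparisons. This list and those below were chosen with earlier results known, so their values are a description with no test. Msmo1, a sterol methyl oxidase downstream of Cyp51, was higher in NLS in all 6 pairs, by 1.22 (SE 0.41), with 1.55 ± 0.68 in NLS 1GH and 0.77 ± 0.84 in WT 1GH, and 1.92 ± 0.30 in NLS 0GH and 0.26 ± 0.80 in WT 0GH (SD, n = 3 each). Like the other values of the list, it is given with no test, and 3.49% of all features were higher in all 6 pairs. Fdft1, squalene synthase, stood at 1.34 (SE 0.78), Dhcr7, the reductase of the final step, at 1.21 (SE 1.02) and Pmvk, phosphomevalonate kinase, at 0.71 (SE 0.53). Mvk, mevalonate kinase, was at −0.19 (SE 0.54), Mvd, the decarboxylase that follows Pmvk, at −0.13 (SE 0.34), and the late enzymes Nsdhl, Hsd17b7, Ebp and Tm7sf2 were at −0.07 (SE 0.58), −0.18 (SE 1.36), −0.25 (SE 0.94) and −0.86 (SE 0.98). Ebp and Tm7sf2 differed in sign between the GH numbers: Ebp was at −1.79 for 1GH and 1.28 for 0GH, and Tm7sf2 at 0.53 for 1GH and −2.25 for 0GH. Enzymes before and after Cyp51 thus lay on both sides of 0, most of them by less than their errors.

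Among 6 measured regulators other than Insig1, of 16 listed, 2 were higher and 4 lower in NLS averaged over the GH numbers, with a median of −0.15. At each GH number singly 3 were higher and 3 lower, with medians of −0.09 at 1GH and 0.13 at 0GH. Insig2, the second Insig protein, was higher by 0.63 (SE 0.34), and in all 6 pairs, as for 3.49% of features. Srebf1, which encodes SREBP proteins including the form that favours fatty acid genes, was at −0.00 (SE 0.33). Rxra and Nr1h3, nuclear receptors that pair as a sensor of oxysterols, were at −0.86 (SE 0.38) and −1.23 (SE 0.92), each higher in NLS in 1 of 6 pairs. For Nr1h3 the difference was 0.37 at 1GH and −2.84 at 0GH. Rxrb was at 0.28 (SE 1.04) and Stard4, a sterol carrier, at −0.29 (SE 1.35).

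Of 18 measured genes of fatty acid synthesis other than Fasn and Scd2, of 22 listed, 14 were higher in NLS and 4 lower averaged over the GH numbers, with a median of 0.30. At each GH number singly 10 were higher and 8 lower, with medians of 0.34 at 1GH and 0.12 at 0GH. Hsd17b12 and Tecr, enzymes of the elongation cycle, were at 1.11 (SE 0.69, 6 of 6 pairs) and 0.74 (SE 0.39, 5 of 6 pairs). Of all features, 3.49% were higher in all 6 pairs and 14.2% in at least 5. Slc25a1, the mitochondrial citrate carrier that exports carbon for lipid synthesis, was at 1.28 (SE 0.71), but at 3.17 for 0GH and −0.61 for 1GH. The other desaturases differed from each other: Scd1 was at 1.99 (SE 1.26, 4 of 6 pairs) and Scd3 at −0.44 (SE 0.80, 2 of 6 pairs). The Scd genes are close in sequence, and the sources used here do not say whether their spots tell them apart.

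Acaca and Acacb, the acetyl-CoA carboxylases that feed Fasn, stood at 0.55 (SE 0.76) and 0.25 (SE 1.08). The elongases Elovl6, Elovl1 and Elovl5 were at 0.45 (SE 0.60), 0.37 (SE 0.38) and 0.07 (SE 0.23), and the desaturases Fads3 and Fads2 at 0.07 (SE 0.66) and −0.14 (SE 0.43). Thrsp, Gpam and Hacd3 lay within 1 SE of 0, at 0.36, 0.12 and 0.14, as did Acss2, acetyl-CoA synthetase, at −0.32. Of the mitochondrial fatty acid synthesis enzymes, Mecr was at 1.12 (SE 0.91) and Oxsm at −2.17 (SE 0.99), the lowest value of the list. Mecr was at 3.05 for 1GH and −0.80 for 0GH, and Oxsm at −0.11 for 1GH and −4.23 for 0GH.

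**Figure D4:**
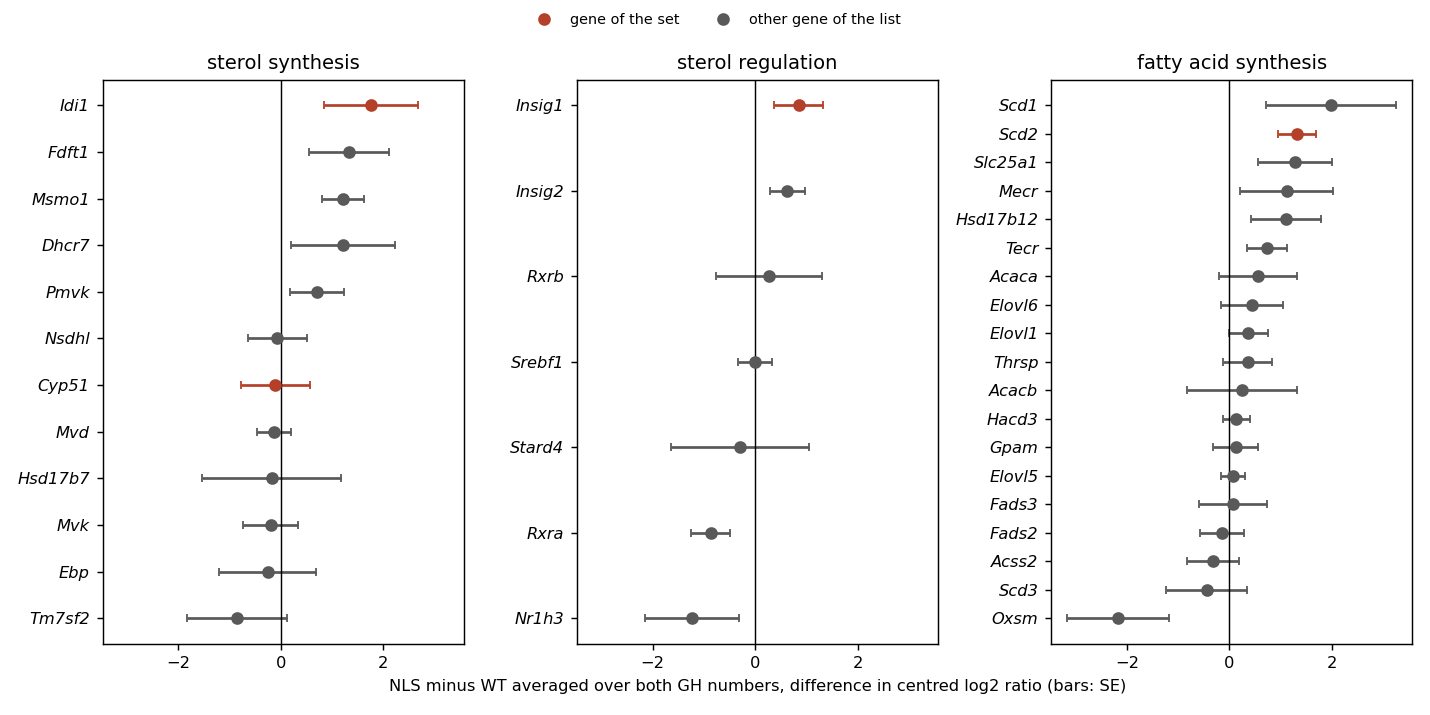
NLS minus WT averaged over both GH numbers (horizontal axis, difference in centred log2 ratio, bars 1 SE) for the genes of the 3 pathway lists with a value on all 12 arrays, ordered by value. The chosen genes sit at or near the top of each list except Cyp51, which sits at −0.11 among enzymes near 0.

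Genes with the pattern most like the set were found by the mean absolute difference, over the 12 arrays, between each gene's profile and the mean profile of Scd2, Idi1, Insig1 and Cyp51, after each was set to its own mean. Of 8703 named genes ranked, the nearest were Thumpd1 (0.26), Cyb5b (0.29), Cpsf4 (0.29), Tpsg1 (0.30) and Btd (0.30), beside a median of 0.94. A gene with the same value on every array would lie at 0.55. Thumpd1 is an RNA-binding helper of tRNA acetylation, Cyb5b a cytochrome of the outer mitochondrial membrane, Cpsf4 a subunit of the polyadenylation complex, Tpsg1 a tryptase and Btd biotinidase. Of these only Cyb5b had all 6 NLS arrays above all 6 WT arrays. The mean profile was made from genes chosen on this contrast, so nothing is read from that. The 4 genes themselves lay farther from their own mean, at 0.51 for Insig1, 0.55 for Scd2, 0.91 for Cyp51 and 0.94 for Idi1, so the mean profile describes none of them closely.

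Markers of tissues known for lipid synthesis lay low against the embryonic reference. None of 3 measured adipocyte markers of 11 listed and none of 7 hepatocyte markers of 13 lay above the array median, with list medians of −1.94 and −4.79. Of 9 measured B lymphoid markers of 14 listed, 6 lay above it, with a median of 0.39. The erythroid and megakaryocyte markers, 4 of 10 listed, had array medians of 0.91 to 1.57 in NLS 1GH, 0.47 to 1.69 in WT 1GH, 0.72 to 1.55 in NLS 0GH and 1.15 to 1.57 in WT 0GH, and a median NLS minus WT difference of −0.85. Of 6 measured myeloid markers of 11 listed, 1 was higher and 5 lower in NLS averaged over the GH numbers, with a median of −0.14 (−0.87 at 1GH and −0.40 at 0GH). Of 26 measured embryo-tissue genes of 44 listed, 14 were higher and 12 lower in NLS at 1GH, with a median of 0.08, and 5 higher and 21 lower at 0GH, with a median of −0.64. The median differences of the adipocyte, hepatocyte, B lymphoid, fibroblast and epithelial lists averaged over the GH numbers lay between −0.25 and 0.04. The Gapdh control spots, which were left out of the fit, had medians of −0.36, 1.03 and 0.79 in NLS 1GH, −0.21, 0.29 and 0.97 in WT 1GH, 0.44, 1.20 and 1.60 in NLS 0GH and 0.05, 0.65 and 0.38 in WT 0GH. At 0GH they were higher in NLS in each letter, as Scd2, Idi1 and Fasn were. The part of these markers and control spots in the differences of the set was not tested.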

How the data were processed

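Total RNA of 12 samples was hybridised against embryonic reference RNA on 2-colour spotted arrays. The deposited values are read as log2 ratios, a base inferred from their range of −14.6 to 18.2. Per the series' design text, the authors fitted a Lowess curve over 50% of the data and raised control values under 200 to 200. No source used here names the image software. Values were multiplied by −1 (direction check in the results). As deposited, array medians over the gene spots ran from −1.22 to 0.911, so the arrays were centred. The median subtracted was that of the tested features after the sign was turned, and it ran from −0.52 (NLS 0GH c) to 1.46 (NLS 1GH d).

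Of 23040 spots, 906 whose identifiers lie outside the gene set were left out (235 Gapdh control and 671 other spots). Of these other spots, 7.90% to 19.2% had a value on an array, so a value alone does not show expression. Of 22134 gene spots, 16720 had 1 symbol, 142 several and 5272 none. Spots of 1 gene were averaged, and features with a value on all 12 arrays were tested. The 4 groups were fitted together with limma 3.58.1 (lmFit, eBayes) in R 4.3.3, two-sided, with Benjamini-Hochberg adjustment over 10760 features and a threshold of 0.05. Fasn, Fdps and Sqle come from a fit of features with at least 2 values a group. The fit was tested on simulated data.

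Arrays of a letter share a red dye incorporation in the labels, so letters pair them. The errors, intervals and unadjusted counts in the results come from the fit without this pairing. With letters as a block in limma, 565 features had an unadjusted p under 0.05 for NLS minus WT at 1GH. At 0GH there were 751, and 855 averaged over the GH numbers. Deviations from group means correlated at 0.0433 to 0.264 within letters and −0.187 to 0.066 between them.

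The members and lists were chosen with earlier results of these data known. The genes named are all members, every other gene of the sterol synthesis, sterol regulation and fatty acid synthesis lists with a value on all arrays, and the 5 genes most like the members. Promoter windows are from RefSeq. Alternatives were the replicate block, no centring, quantile normalization, fewer values required, outer ratios left out, spots not averaged, and each array or letter left out.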

Additional observations from a re-analysis of the deposited data

How the results depend on the processing

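No feature passed in any of the 7 comparisons under any alternative, so the count of calls was 0 in all 154 repeats. The replicate block (paired letters) changed no call, and its lowest adjusted p (limma) was 0.0996, for NLS minus WT averaged over the GH numbers. Over all alternatives the lowest was 0.0573, for 1GH minus 0GH in WT without the WT 1GH array of letter c. Without centring, the median of all features was 0.35 at 1GH and −0.18 at 0GH for NLS minus WT and 0.52 for the interaction. The median of the 4 genes for NLS minus WT at 0GH was 0.72, and 0.0085 over the 7 genes with at least 2 values a group and 0.31 without the outer 5% of ratios, which dropped Idi1; with an array or letter left out it lay between 0.30 and 1.13. Their interaction median was −0.22, and 0.36 without centring, with or without the replicate block, and −0.38 to 0.34 with an array or letter left out. NLS minus WT stayed positive under all alternatives for Scd2 and Idi1 at both GH numbers and for Insig1 at 1GH, and changed sign under some for Cyp51 and for Insig1 at 0GH. Among GH differences and interactions of the 4 genes, signs turned as follows. Without centring, with or without the block, the GH difference in NLS was 0.30 for Scd2 and 0.13 for Cyp51, that in WT was −0.077 for Scd2, −0.045 for Idi1 and −0.22 for Cyp51, and the interaction was 0.38 for Scd2 and 0.35 for Cyp51. With quantile normalization the GH difference was 0.00958 for Scd2 in NLS, −0.40 for Cyp51 in WT and 0.00432 for Idi1 averaged. Without the outer 5% of ratios it was 0.41 in NLS and 0.67 averaged for Cyp51. With an array or letter left out, the GH difference in NLS ran from −0.38 to 0.33 for Scd2, −1.55 to 0.56 for Idi1 and −1.04 to 0.41 for Cyp51. In WT it ran from −0.17 to 0.61 for Scd2, −0.96 to 1.53 for Idi1 and −1.40 to 1.01 for Cyp51. Averaged, it ran from −0.10 to 0.30 for Scd2, −0.77 to 0.83 for Idi1, −0.62 to 0.72 for Insig1 and −1.22 to 0.65 for Cyp51. The interaction ran from −0.62 to 0.33 for Scd2, −1.96 to 0.53 for Idi1 and −1.12 to 0.52 for Cyp51. Why these values moved was not tested, apart from the fewer arrays in each repeat.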

Other observations

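Genes of sterol uptake and fatty acid breakdown, the counterparts of the synthesis genes, lay on both sides of 0 for NLS minus WT averaged over the GH numbers. Of 15 genes of sterol uptake, export and esterification, 7 had a value on all arrays, with 3 higher and 4 lower in NLS averaged over the GH numbers and a median of −0.07 log2 units. They ranged from −0.81 to 0.47. As above, these lists are described with no test for NLS minus WT. Of 24 genes of fatty acid oxidation, 14 were measured on all arrays, with 8 higher and 6 lower in NLS. Their median was 0.03 and their range −0.60 to 1.80. For 1GH minus 0GH averaged over the receptor forms, 1 uptake and export gene was higher and 6 were lower, with a median of −0.21. There 9 oxidation genes were higher and 5 lower, with a median of 0.06, and 49.3% of all features were higher.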
